A study of Homo sapiens with 48 samples.

Results

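The mitochondrial ribosome is a ribosome of its own, built inside mitochondria from a large and a small subunit, and it translates the few proteins that mitochondrial DNA encodes, all of them core subunits of the respiratory chain and of ATP synthase. Its RNAs come from mitochondrial DNA, but all of its proteins are encoded in the nucleus, translated in the cytosol and imported. Some of these proteins descend from proteins of bacterial ribosomes and others were added in the mitochondrial lineage. The genes of the large subunit carry the prefix MRPL and those of the small subunit MRPS, with a few exceptions noted here.

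The mitochondrial ribosomal protein genes were taken as every row of the deposited expression table whose symbol starts with MRPL or MRPS followed by a digit, which gave 77 of 19102 genes, 48 with the MRPL and 29 with the MRPS prefix. By role, 29 were large-subunit proteins with a bacterial homolog, 21 were large-subunit proteins specific to mitochondria (MRPS18A and MRPS30 among them despite their prefix), 17 were small-subunit proteins with a bacterial homolog and 9 were small-subunit proteins specific to mitochondria. The remaining one, MRPS36, is known as a component of the 2-oxoglutarate dehydrogenase complex rather than of the ribosome. No pseudogene or antisense symbol was among the 77.

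RNA with poly(A) tails was sequenced from A382 cells, a human glioblastoma line kept in culture. Of 48 libraries, 44 came from cells infected with lentivirus carrying guide RNAs and collected on day 9. Among these, 8 libraries carried non-targeting guides (sgNeg1 to sgNeg4, 2 libraries each), 4 targeted BRD8 and 4 targeted H2AZ (2 guides with 2 replicates each), and 2 libraries each, 1 per guide, targeted TIP60, EP400, TRRAP, RUVBL1, RUVBL2, ACTL6A, DMAP1, GAS41, ING3, MRGBP, MEAF6, VPS72, MORF4L1 and MORF4L2. The targets belong to the EP400/TIP60 chromatin complex, which acetylates histones and exchanges the variant H2AZ, or are that variant. A further 4 libraries came from A382 cells on day 2 of doxycycline, 2 with a control vector (A382_PCW) and 2 with an inducible p53 vector (A382_P53), so that both groups had received the drug. The labels do not say that replicates were separate cultures, and p-values therefore measure the spread between libraries. That spread may be technical between replicates, and between libraries of different guides it also includes guide differences.

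Values are FPKM, fragments scaled to transcript length and to the library's mapped total, and every fold change below is a difference of log2(FPKM + 1), which understates changes of weakly expressed genes. Empty columns part the table into 5 sections whose scales differ. They were treated as normalized separately, which the sources used here do not state, and a knockout was set only against the sgNeg libraries beside it in that section. A transcript of 1 kilobase at 1 FPKM stood for 4.44 to 21.9 fragments, depending on the library. Of the markers of a glioma line, VIM and CD44 reached at least 926 and 118 FPKM in all libraries. SOX2 had a median of 29.3 FPKM (0.0644 to 79.0) and EGFR one of 10.3 FPKM (3.15 to 28.7). NES, GFAP, OLIG2 and S100B had medians at or below 0.256 FPKM. Markers of immune, epithelial and endothelial cells stayed low, with highest values of 1.85 FPKM for CD14, 0.681 FPKM for KRT5 and 3.28 FPKM for VWF. The mRNA of the targeted gene was called lower in 8 of 16 knockouts, with 18.6% to 51.5% of the control mean left (BRD8, EP400, TIP60, ACTL6A, GAS41, RUVBL1, RUVBL2 and H2AZ). In the other 8 it was not called, at 40.5% of control for DMAP1, 51.0% for MRGBP, 65.9% for ING3, 68.2% for MEAF6, 74.7% for VPS72, 82.3% for TRRAP, 92.8% for MORF4L2 and 103% for MORF4L1. Guide 2 of MEAF6 and guide 2 of VPS72 had the same value in each of the 19102 genes. Both were left out, so that MEAF6 and VPS72 rested on 1 library each.

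All 77 genes were expressed. No value was 0 in any library, and 77 of 77 passed the minimum of 1 FPKM in 2 libraries in 4 of the sections. In the section of sgNeg1 and BRD8, 76 passed and MRPL57, a mitochondria-specific large-subunit protein, did not, with values of 0.135 to 0.291 FPKM. Within the sgNeg2 pair, MRPL51 was the most abundant member with a mean of 233 FPKM, followed by MRPL41 with 116, MRPS6 with 101 and MRPL33 with 100.2 FPKM, and the lowest were MRPL19 with 5.64, MRPS25 with 7.74 and MRPS31 with 8.72 FPKM. The order was not the same in every section. MRPL51 also led in sgNeg1, sgNeg3 and sgNeg4, but in the control vector MRPS24 led with a mean of 169.6 FPKM (167 and 172), above MRPL51 with 156 FPKM (159 and 153). Over all 46 libraries used, and so across sections, the highest medians were those of MRPL51 with 226 FPKM (32.3 to 624), MRPL33 with 124 (28.2 to 347) and MRPL41 with 120 (7.01 to 253), and the lowest were those of MRPL19 with 5.52 FPKM (0.923 to 12.7), MRPS25 with 8.22 (2.18 to 20.3) and MRPL57 with 9.56 (0.135 to 26.6). The median member stood at 36.0 FPKM in the sgNeg2 pair, at 37.8 in sgNeg3, at 52.4 in sgNeg4 and at 49.0 in the control vector, but at 8.52 in sgNeg1, and levels were therefore not compared between sections. The members are short genes, with transcripts of 461 to 3332 bases and a median of 1147, against a median of 2342 over the 18513 genes of the table with a known length.

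Expression of p53 was followed by lower mRNA of most mitochondrial ribosomal protein genes. Of the 77 members, 64 fell and 5 rose by limma, which is 83.1% lower and 6.49% higher, where 46.7% of all 12203 tested genes were called lower and 37.6% higher. The median log2 fold change over the members was -0.76, against -0.13 over all tested genes. Both p53 libraries lay below both control libraries for 68 members and above them for 5, and the ranges overlapped for 4.

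The falls covered every role. Of the small-subunit proteins with a bacterial homolog, 17 of 17 fell, with a median of -0.81. Of the mitochondria-specific small-subunit proteins, 6 of 9 fell and 2 rose, with a median of -0.80. In the large subunit, 25 of 29 bacterial homologs fell and 1 rose, with a median of -0.75, and 15 of 21 mitochondria-specific proteins fell and 2 rose, with a median of -0.55. Whether the 2 subunits differed was not tested. Their medians were -0.80 for 26 small-subunit and -0.65 for 50 large-subunit genes. MRPS36, the dehydrogenase component, was among the genes that fell.

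**Figure D1:**
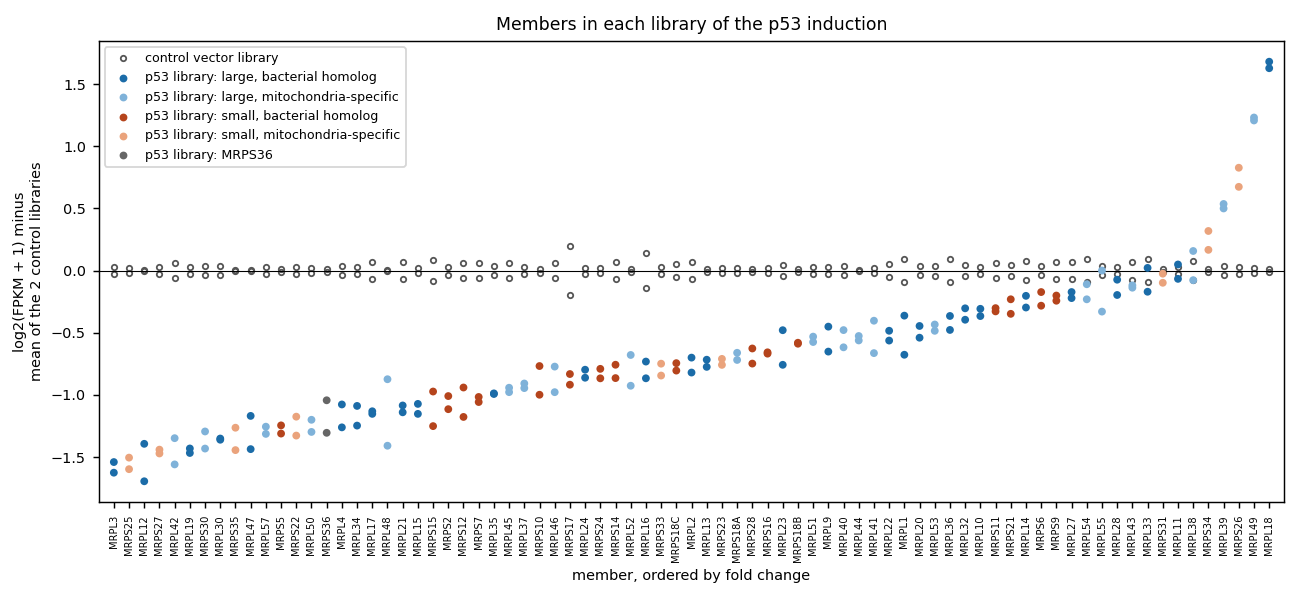
Each of the 77 members in the 4 libraries of the p53 induction, as log2(FPKM + 1) minus the mean of the 2 control vector libraries (y axis), ordered by fold change (x axis). Open points are control libraries and filled points the 2 p53 libraries, coloured by role. Both p53 libraries lie below both control libraries in 68 members, a count without the share of all genes that do so. MRPL18 and MRPL49 stand at the right end with log2 fold changes of 1.65 and 1.22.

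On the log2(FPKM + 1) scale the largest fall was that of MRPL3, a large-subunit protein with a bacterial homolog, which stood at 70.0 and 67.1 FPKM in the control libraries and at 22.9 and 21.5 FPKM in the p53 libraries (log2 fold change -1.58 ± 0.05, SE, n = 2 against 2, limma adjusted p = 2.02e-07). MRPS25, a small-subunit protein specific to mitochondria, went from 19.7 and 20.3 FPKM to 5.93 and 6.39 (-1.55 ± 0.07, adjusted p = 6.07e-07). MRPL12, the stalk protein that also binds mitochondrial RNA polymerase, went from 123 and 123 FPKM to 46.1 and 37.2 (-1.54 ± 0.09, adjusted p = 2.89e-06). The remaining share of the control mean was 32.4% for MRPL3, 30.8% for MRPS25 and 33.9% for MRPL12. MRPS27, a pentatricopeptide repeat protein of the small subunit, went from 38.1 and 39.8 FPKM to 13.4 and 13.7 (-1.46 ± 0.05, adjusted p = 3.09e-07). In each of these 4 genes the libraries of a group lay far closer to each other than to the other group.

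The 5 members that rose were MRPL18, MRPL49, MRPS26, MRPL39 and MRPS34. MRPL18, whose bacterial counterpart binds 5S ribosomal RNA, stood at 51.3 and 50.2 FPKM in the control libraries and at 165 and 159 FPKM in the p53 libraries (1.65 ± 0.04, adjusted p = 7.49e-08), or 3.19 times the control mean. MRPL49, a mitochondria-specific large-subunit protein, went from 28.2 and 27.5 FPKM to 66.7 and 65.6 (1.22 ± 0.05, adjusted p = 3.51e-07). MRPS26, of the small subunit, went from 54.6 and 56.5 FPKM to 99.3 and 89.2 (0.75 ± 0.06, adjusted p = 1.53e-05). The p53 libraries lay above the control libraries in all 3. MRPL39 rose by 0.52 ± 0.05 and MRPS34 by 0.24, both of them, like MRPS26, below a doubling.

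The neighbours of the members with the largest rises moved in different ways. MRPL18 and TCP1, a subunit of the cytosolic chaperonin, are transcribed in opposite directions from starts less than 1 kb apart (1000 bases, GENCODE v29 annotation), and TCP1 fell by 1.22 on the log2 scale while MRPL18 rose. MRPL49 overlaps FAU and SYVN1 on the opposite strand. FAU, which encodes a cytosolic ribosomal protein made as a fusion, fell by 0.71, and SYVN1, a ubiquitin ligase of the endoplasmic reticulum, rose by 0.53 ± 0.08 (adjusted p = 0.00072). Whether the authors' counting used the strand of the reads is not given in the sources used here, so reads of MRPL49 and of these partners may not have been told apart. Of the 77 members, 30 overlap another gene of the table, 6 on the same and 24 on the opposite strand.

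The direction of the p53 result held under another scaling of the libraries. With each library rescaled by its median ratio to the section mean, the all-gene median moved by 0.17, from -0.13 to 0.04. The members then counted 58 lower and 7 higher, with a median of -0.58, which is 0.63 below the all-gene median, against 0.64 below it as deposited. The 58 were all among the 64, and the 5 that rose remained higher. MRPS11, MRPS21, MRPL14, MRPS6, MRPS9 and MRPL27 were lower only as deposited, and MRPL11 and MRPL38 were called higher only after rescaling. Since members are short, they were also set beside 1813 genes whose transcript length lay between the members' 25th and 75th percentiles (899 to 1582 bases). Those genes had a median of -0.19 with 49.4% called lower. With a smooth trend on length taken out of each library, 59 members were lower and 6 higher, with a median of -0.55, against -0.09 over all genes. The shares of all genes called after rescaling or removal of the length trend are not given here.

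Most genes that serve the mitochondrial ribosome also fell. The counts below stand against 46.7% of all tested genes called lower and 37.6% called higher with p53. Of 5 further subunits without the MRP prefix, 5 fell (median -0.70), among them PTCD3 (-1.10) and the death-associated protein DAP3 (-0.85). Of 20 assembly factors, 17 fell and 1 rose (median -0.49). The mitochondrial transcription terminator family gene MTERF3 fell by 1.23 and the GTPase gene MTG1 by 1.12, while NOA1, another GTPase, rose by 0.91. Of 15 translation and mRNA factors, 11 fell and 2 rose (median -0.62), with SLIRP at -1.53 and its partner LRPPRC, which stabilizes mitochondrial mRNAs, at -1.38. Of 17 mitochondrial aminoacyl-tRNA synthetases, 13 fell and 1 rose (median -0.58), and of 9 genes of mitochondrial DNA transcription and replication 8 fell and 0 rose (median -0.55), with SSBP1 at -1.47 and TFB2M at -1.34.

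The same direction was seen outside the mitochondrial translation machinery. Of 78 nuclear subunits of oxidative phosphorylation, 73 fell and 2 rose (median -0.90). Of 82 cytosolic ribosomal protein genes, 73 fell and 3 rose (median -0.65). No test separated the members from these lists. Among 10 regulators of mitochondrial biogenesis, 7 fell and 1 rose. MYC fell from a mean of 108 to 24.6 FPKM (-2.09 ± 0.06, adjusted p = 7.61e-08), GABPA, the DNA-binding part of an ETS-family factor, by 0.57 and ESRRA by 0.36. PPARGC1A, a coactivator, rose by 1.00, its relative PPARGC1B fell by 1.35, and NRF1, a factor named for nuclear respiratory genes, stood at -0.05 ± 0.08 (adjusted p = 0.563).

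Since so many members fell together, the promoters were searched for motifs of factors known from nuclear genes for mitochondrial proteins. RefSeq windows (GRCh38.p14) from 250 bases before to 50 after the start were at hand for 68 members and for 14398 genes of the table. Both strands were searched, and matches may overlap. The ETS motif CCGGAAG was in 41.2% of the members' windows (28 of 68) and in 14.3% of all windows. AAGATGGC, bound by YY1, was in 29.4% of the members' windows (20 of 68) and in 4.02% of all, with 15 of its 21 matches starting after the transcription start. GCGCATGC, the core of the NRF1 site, was in 8.82% against 4.28%, the E-box CACGTG in 8.82% against 8.92%, and the p53 half-site in 5.88% against 5.94%. Among the 55 members of these that fell with p53, 20 held the ETS motif and 19 the YY1 motif, against 8 and 1 of the other 13. The median log2 fold change was -0.61 with and -0.85 without the ETS motif, and -0.85 with and -0.61 without the YY1 motif. The 14398 genes were not limited to expressed ones, whereas all members were expressed. Shares over expressed genes alone are not given here, so the excess may not be particular to the members. A match describes letters in a window and not a bound site.

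The stretches below show how these promoters look in 3 members that fell and in the one that rose most, each the longest run of at most 150 bases before the start without an annotated exon. Motif matches are in capitals, and each is read 5′ to 3′ on the strand of its gene. MRPL3 lies on the minus strand at chr3:131502984-131503133 and holds an ETS motif. MRPL17 (-1.14 with p53), on the minus strand at chr11:6683402-6683551, holds overlapping NRF1 cores on both strands. MRPS18C (-0.77), on the plus strand at chr4:83455857-83455931, holds an E-box and an NRF1 core. MRPL18, on the plus strand at chr6:159789750-159789811, holds no ETS, YY1, NRF1 or E-box match. These genes were picked by a rule that used their p53 values.
MRPL3: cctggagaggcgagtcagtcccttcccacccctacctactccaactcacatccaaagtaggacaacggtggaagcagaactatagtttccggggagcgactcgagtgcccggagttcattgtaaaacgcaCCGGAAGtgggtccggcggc
MRPL17: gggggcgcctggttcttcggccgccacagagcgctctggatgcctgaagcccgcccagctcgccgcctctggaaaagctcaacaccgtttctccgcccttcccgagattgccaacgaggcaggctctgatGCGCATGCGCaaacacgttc
MRPS18C: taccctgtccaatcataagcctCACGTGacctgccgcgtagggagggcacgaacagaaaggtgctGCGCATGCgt
MRPL18: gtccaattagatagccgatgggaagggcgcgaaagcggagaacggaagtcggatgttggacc

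Far fewer members were called in the knockouts. The spread differs between sections, so a member without a call was not shown to be unchanged. Both RUVBL1 libraries lay above both controls for 53 members and below them for 12, with overlap for 12. For RUVBL2 these counts were 35, 16 and 26. The matching shares of all genes are not given here. Of the 76 members tested in all 16 knockouts, 34 were called in at least 1 (44.7%) and 15 in at least 2 (19.7%). Of the 8208 genes tested in all 16, 77.8% and 48.1% were called as often. With p53 but in no knockout, 39 members were called. The matching share over all genes is not given here, where p53 alone had 46.7% of all tested genes lower and 37.6% higher. In 10 of the 16 knockouts no member was called. Counts given below for rescaled libraries, removed length trends or other fits stand, unless stated, without the share of all genes called there.

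**Figure D2:**
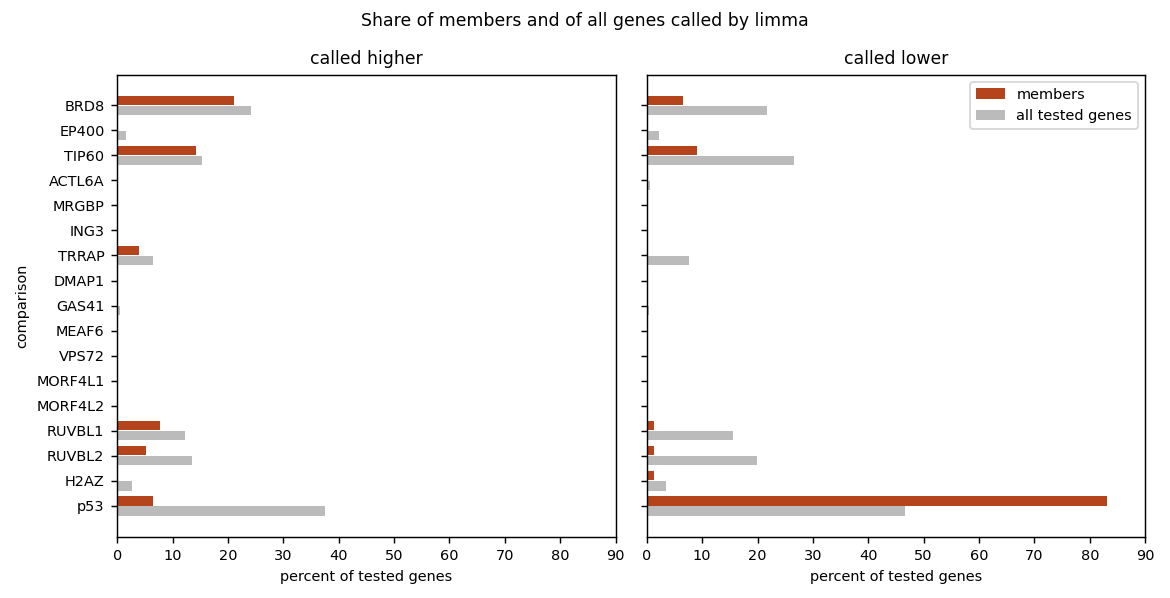
Percent of the tested members (red) and of all tested genes (grey) called higher (left) or lower (right) by limma in each of 17 comparisons. In the 16 knockouts the members' bars are no longer than those of all genes, and with p53 83.1% of the members against 46.7% of all genes are lower.

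BRD8 knockout, the bromodomain subunit, had 16 members higher and 5 lower of 76 tested. That is 21.1% higher and 6.58% lower, where 24.2% and 21.7% of all 8458 tested genes were called. The median was 0.12, against 0.02 over all tested genes and 0.03 over genes of like length. The 5 lower members became 10 with rescaled libraries, at 16 higher. Of 84 cytosolic ribosomal protein genes in the same comparison, 58 rose and 0 fell, with a median of 0.26, and of 77 oxidative phosphorylation subunits 26 rose and 5 fell.

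The members with the largest rises stood below the members' median of 8.52 FPKM in sgNeg1. MRPL36 and MRPS2 also stood below 4.71 FPKM, the median there of genes with at least 1 FPKM. MRPL36, a large-subunit protein with a bacterial homolog, stood at 1.99 and 1.25 FPKM in sgNeg1 and at 2.36, 4.50, 2.81 and 3.30 FPKM in the BRD8 libraries (0.68 ± 0.18, limma adjusted p = 0.0102). MRPS2, a small-subunit protein with a bacterial homolog, stood at 2.79 and 3.45 FPKM and rose to 5.31, 6.14, 4.76 and 5.26 (0.63 ± 0.10, adjusted p = 0.000624). MRPS33, specific to the mitochondrial small subunit, stood at 5.17 and 6.17 FPKM and rose to 7.82, 10.5, 9.35 and 9.27 (0.61 ± 0.10, adjusted p = 0.00101). Every BRD8 library lay above both controls in these 3 genes, and also for MRPS12, a protein of the decoding centre (0.60 ± 0.13, adjusted p = 0.00526). MRPL16 fell by 0.33, MRPL49 by 0.31, MRPS21 by 0.30 and MRPL22, which lines the exit tunnel, by 0.25.

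Single control libraries mattered for BRD8. Without sgNeg1 replicate 1, 9 members were called, and without sgNeg1 replicate 2, 13. The 4 largest falls lost their calls without either of these libraries (highest adjusted p over all alternatives 0.117 for MRPL16, 0.16 for MRPL49, 0.101 for MRPS21 and 0.0763 for MRPL22), MRPS12 without the first (0.0844) and MRPL36 without the second (0.126). MRPS2 and MRPS33 were called in all 15 alternatives. The p53 targets CDKN1A and MDM2 rose by 0.38 and 0.77 in the same libraries. Of the 16 members higher in BRD8 knockout, 13 were among those lower with p53, and of the 5 lower members 4 were. These shares lie around the 83.1% of all members that fell with p53.

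TIP60 knockout, the acetyltransferase, had 11 members higher and 7 lower of 77, which is 14.3% and 9.09%, where 15.4% and 26.6% of all 11382 tested genes were called higher and lower. The median was 0.02, against -0.09 over all genes. Rescaling moved the all-gene median by 0.12, and the members then counted 24 higher and 7 lower. With the length trend removed they counted 12 and 11. All 7 falls were in the large subunit, which also had 7 rises, while the small subunit had 4 rises and 0 falls. Whether the subunits differed was not tested.

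MRPS33 stood at 40.7 and 42.0 FPKM in sgNeg2 and at 87.0 and 83.9 FPKM in the TIP60 libraries (1.03 ± 0.18, limma adjusted p = 0.000298). MRPL48, of the large subunit, stood at 20.4 and 16.0 FPKM and at 43.4 and 28.7 (0.93 ± 0.21, adjusted p = 0.00265). MRPL33, a small large-subunit protein with a bacterial homolog, stood at 104 and 96.1 FPKM and at 172 and 191 (0.85 ± 0.17, adjusted p = 0.00102). The groups did not overlap in these genes, and the 3 calls held in all 12 alternatives. MRPL54 followed with 0.64 ± 0.24 (adjusted p = 0.0448), a call lost without sgTIP60 guide 1 and without sgNeg2 replicate 2.

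Among the falls, MRPL24 stood at 96.4 and 73.5 FPKM in sgNeg2 and at 54.6 and 46.3 FPKM in the TIP60 libraries (-0.73 ± 0.23, limma adjusted p = 0.0196). MRPL15 stood at 80.3 and 64.2 FPKM and at 43.1 and 42.7 (-0.73 ± 0.23, adjusted p = 0.0197), MRPL34 fell by 0.68 and MRPL12 by 0.63. All 4 are large-subunit proteins with bacterial homologs. Each lost its call without sgTIP60 guide 2. MRPL24, MRPL15 and MRPL12 also lost it without sgNeg2 replicate 1, and MRPL15 without sgTIP60 guide 1. MYC rose by 1.98 in TIP60 knockout. It was also called higher in BRD8 (0.88), EP400 (0.74), TRRAP (1.09) and H2AZ knockout (0.47). The other knockouts are not listed here for MYC, and its relation to the members was not tested.

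EP400 is the large ATPase scaffold of the complex, and in its knockout 0 members were called, where 3.83% of all genes were. At an unadjusted p under 0.05 there were 2. Compared directly, TIP60 knockout against EP400 knockout had 3 members higher and 1 lower, or 3.90% and 1.30%, where 7.82% and 13.5% of all genes were called. MRPL48 was higher by 0.87 ± 0.21, MRPS33 by 0.63 ± 0.18 and MRPL33 by 0.58 ± 0.17, and MRPL15 was lower by 0.80 on the log2 scale. MRPL15 stood at 76.0 and 74.6 FPKM in the EP400 libraries and MRPS33 at 54.8 and 55.2. Leaving out any 1 of the 4 libraries left 0 or 1 of these calls, rescaling gave 8 higher and 2 lower, and removing the length trend gave 3 higher and 8 lower.

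RUVBL1 and RUVBL2 are the paired AAA+ ATPases shared by several chromatin complexes. In RUVBL1 knockout 6 members were higher and 1 lower, which is 7.79% and 1.30%, where 12.3% and 15.5% of all 11063 tested genes were called. In RUVBL2 knockout 4 were higher and 1 lower, which is 5.19% and 1.30%, where 13.5% and 19.9% were called. The members' medians were 0.20 and 0.12, those of all genes -0.02 and -0.05, and those of genes of like length 0.10 and 0.00. Both comparisons use the sgNeg3 pair, so their likeness is in part that of shared controls. Set directly against each other, RUVBL2 and RUVBL1 knockouts differed in 0 members, with 1 at an unadjusted p under 0.05, where 0.00904% of all genes were called.

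MRPL49 was the member with the most stable call in both. It stood at 33.4 and 32.2 FPKM in sgNeg3, at 57.7 and 62.9 FPKM in the RUVBL1 libraries (0.86 ± 0.14, limma adjusted p = 0.00368) and at 62.1 and 60.1 FPKM in the RUVBL2 libraries (0.88 ± 0.14, adjusted p = 0.00225). Its overlapping neighbour SYVN1 rose by 0.74 and 0.79 in the same comparisons, whereas FAU was at 0.58 (adjusted p = 0.124) and 0.22 (adjusted p = 0.549). MRPL20, a large-subunit protein with a bacterial homolog, stood at 86.8 and 83.1 FPKM in sgNeg3, at 141 and 163 FPKM with RUVBL1 and at 141 and 174 FPKM with RUVBL2 guides (0.83 ± 0.25 and 0.87 ± 0.25). MRPS2 stood at 30.8 and 35.3 FPKM in sgNeg3, at 48.0 and 54.2 FPKM and at 44.1 and 47.4 FPKM (0.61 ± 0.16 and 0.46 ± 0.16). All knockout libraries lay above both controls in these 3 genes.

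MRPS10, of the small subunit, stood at 11.7 and 11.9 FPKM in sgNeg3, at 16.2 and 16.6 FPKM with RUVBL1 and at 16.9 and 16.7 FPKM with RUVBL2 guides (0.44 ± 0.11 and 0.47 ± 0.11). MRPS12 rose with RUVBL1 by 0.57 ± 0.18, and MRPL10 by 0.53 ± 0.16. MRPL42 was the only fall, from 28.5 and 26.9 FPKM to 21.8 and 17.9 FPKM with RUVBL1 and to 18.5 and 19.3 FPKM with RUVBL2 guides (-0.47 ± 0.14 and -0.53 ± 0.14). These counts moved with the fit. Leaving out any 1 of the 4 libraries left 1 to 3 members called with RUVBL1 and 1 with RUVBL2, MRPL49 each time, whereas a fit on the 4 libraries of the comparison alone called 43 and 35 members. Rescaling gave 10 higher and 1 lower with RUVBL2. The shares of all genes called in these other fits are not given here, so the counts do not set the members apart.

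TRRAP is a large scaffold without kinase activity, and its own mRNA stood at 82.3% of control in the libraries labelled TRRAP (limma adjusted p = 0.44). These libraries had 3 members higher and 0 lower, or 3.90%, where 6.54% of all genes were called higher and 7.71% lower. MRPS22, a mitochondria-specific small-subunit protein, stood at 26.2 and 24.6 FPKM in sgNeg2 and at 41.8 and 40.3 FPKM in the TRRAP libraries (0.67 ± 0.12, limma adjusted p = 0.00312), a call that held in all 12 alternatives. MRPL33 rose by 0.58 ± 0.17 (adjusted p = 0.0351) and MRPS10 by 0.45 ± 0.14 (adjusted p = 0.0466), from 11.6 and 10.8 FPKM to 15.9 and 15.4. Leaving out any 1 of the 4 libraries ended both of these calls (highest adjusted p 0.144 and 0.248). Rescaling gave 4 higher and 1 lower.

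H2AZ knockout had 1 member lower and 0 higher of 77, where 3.42% of all 11087 tested genes were called lower and 2.6% higher. The member was MRPS6, a small-subunit protein with a bacterial homolog, at 239 and 181 FPKM in sgNeg4 and at 130, 111, 115 and 136 FPKM in the H2AZ libraries (-0.76 ± 0.13, limma adjusted p = 0.0107). All 4 H2AZ libraries lay below both controls. With only 1 of the 2 guides in the fit the call was lost (highest adjusted p 0.0874). MRPS6 overlaps SLC5A3, a transporter of inositol, on the same strand, so their reads can be shared. SLC5A3 stood at -0.50 ± 0.15 (adjusted p = 0.0843). The members' median was -0.13 in H2AZ knockout, against -0.01 over all genes and -0.06 over genes of like length. The sgNeg4 libraries stood 0.17 above and 0.17 below their own mean in the members' median, and without sgNeg4 replicate 2, 16 members were called lower, where 6.47% of all genes were.

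In the other 9 knockouts beside EP400 no member was called. Of all tested genes, 0.782% were called in ACTL6A, 0.264% in MRGBP, 0.0264% in ING3 and 0.94% in GAS41 knockout, and 0% in the libraries labelled DMAP1, MEAF6, VPS72, MORF4L1 and MORF4L2, in none of which the target's own mRNA was called lower. At an unadjusted p under 0.05 the members counted 4, 6, 3 and 2 in the first 4 of these, and 2, 1, 1, 0 and 0 in the last 5. The smallest limma adjusted p of any member was 0.159, in MRGBP knockout. Members' medians ran from -0.06 in DMAP1 to 0.21 in MORF4L2 knockout.

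**Figure D3:**
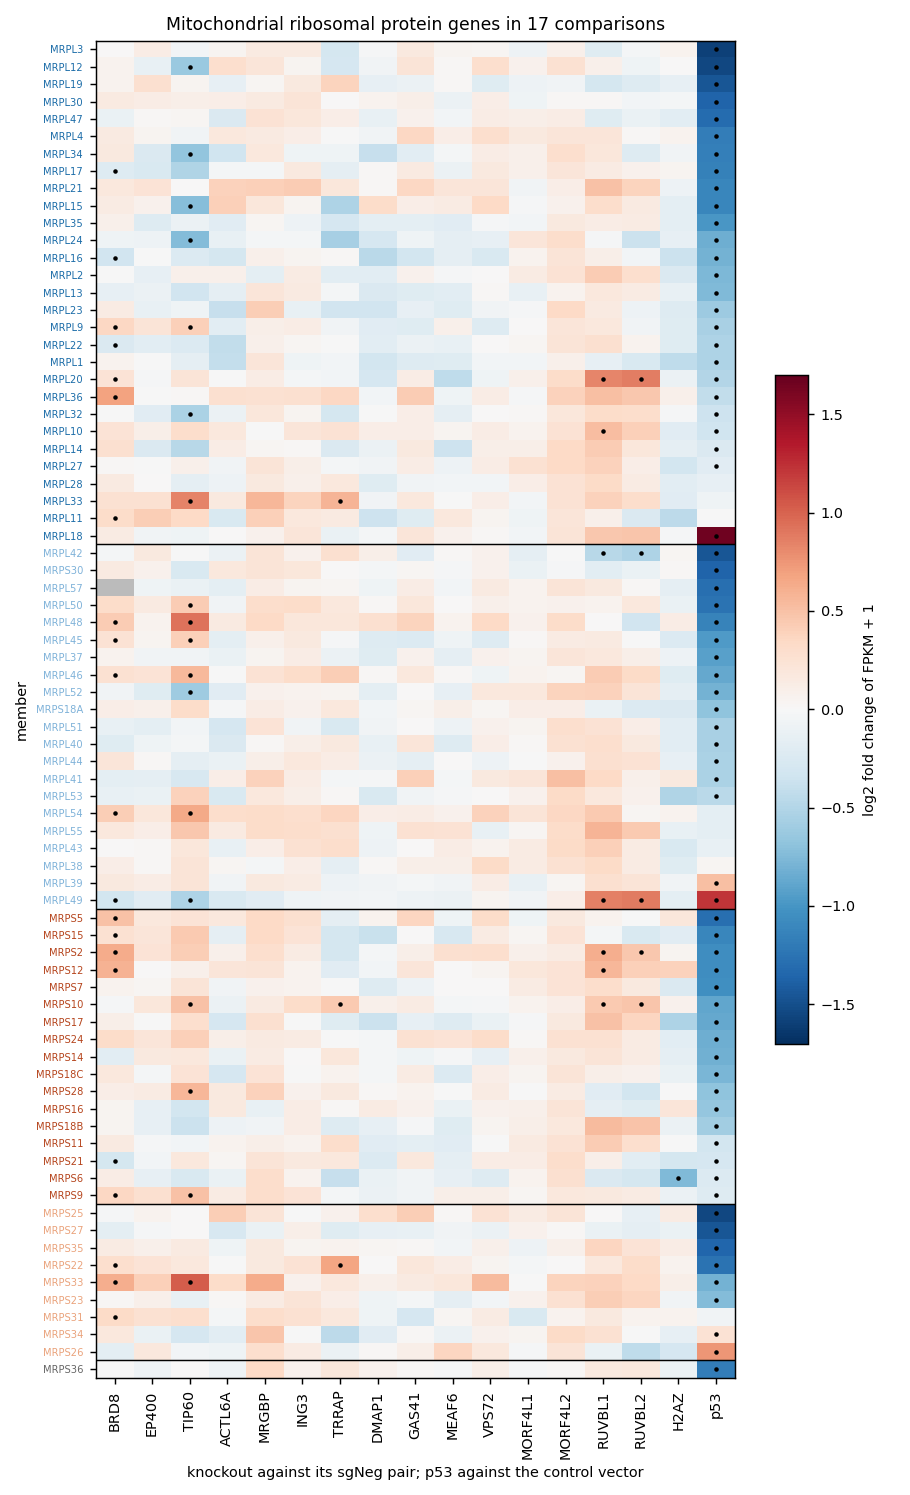
Log2 fold change of FPKM + 1 (colour) of the 77 members (rows, grouped by role and ordered within a role by the p53 comparison) in 16 knockouts and with p53 (columns). Black points mark calls by limma, and the grey cell is MRPL57, which did not pass the filter in the BRD8 section. The p53 column holds 69 of the calls, and 10 knockout columns hold none.

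Over the 34 knockout libraries used, the median deviation of the members from their controls followed that of other genes of like length, with Pearson's r = 0.88 and Spearman's rho = 0.83, a description of libraries that share controls within a section. The highest library was MORF4L2 guide 2, where the members stood at 0.54 and genes of like length at 0.43, followed by MRGBP guide 1 at 0.44 and 0.30. Without the other MORF4L2 library, 32 members were called higher, where 8.71% of all genes were. Without the other MRGBP library 4 members were called higher, where 1.05% of all genes were.

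**Figure D4:**
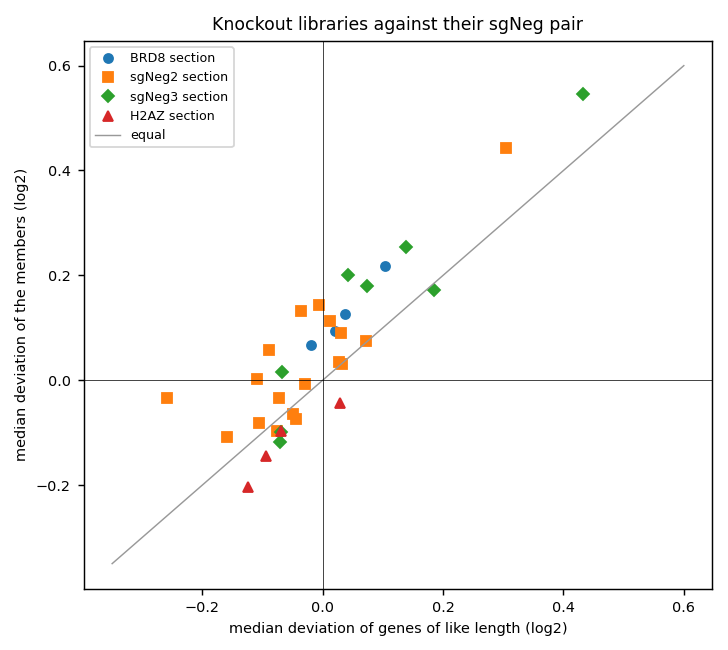
Median deviation from the sgNeg pair of the section, in log2 units, of the members (y axis) and of other expressed genes of like transcript length (x axis), for 34 knockout libraries marked by section, with the line of equality. The libraries spread along the line, and MORF4L2 guide 2 stands at the upper right with 0.54 for the members and 0.43 for genes of like length. Every BRD8, EP400, TIP60, MRGBP, ING3, TRRAP, MEAF6, VPS72, RUVBL1 and RUVBL2 library lies above the line. Every H2AZ, DMAP1 and MORF4L1 library lies below it, and ACTL6A, GAS41 and MORF4L2 have libraries on both sides.

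MRPL49 and MRPS10 were called in the most comparisons, 5 each. The TIP60 and TRRAP comparisons share the sgNeg2 pair, and those of RUVBL1 and RUVBL2 the sgNeg3 pair. Calls that share a control pair do not count as independent. MRPL49 was higher with RUVBL1, RUVBL2 and p53, and lower with BRD8 and TIP60. In TIP60 knockout it stood at 22.8 and 20.3 FPKM against 34.5 and 28.6 in sgNeg2 (-0.52 ± 0.14, limma adjusted p = 0.00844), where SYVN1 stood at -0.39 ± 0.13 (adjusted p = 0.0275). In BRD8 knockout it stood at 2.41, 1.91, 2.17 and 1.71 FPKM against 2.88 and 2.64, and SYVN1 at 0.03 (adjusted p = 0.761).

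MRPS10 was higher with TIP60, TRRAP, RUVBL1 and RUVBL2 and lower with p53. In TIP60 knockout it stood at 17.7 and 14.9 FPKM against 11.6 and 10.8 (0.50 ± 0.14, limma adjusted p = 0.0105), and with p53 at 8.28 and 9.89 FPKM against 17.3 and 17.7 (-0.88 ± 0.09, adjusted p = 4.3e-05). MRPL20 and MRPS2 were called in 4 comparisons each, higher with BRD8, RUVBL1 and RUVBL2 and lower with p53 (-0.49 and -1.06). Another 9 members were called in 3 comparisons each, namely MRPL9, MRPL42, MRPL45, MRPL46, MRPL48, MRPS9, MRPS12, MRPS22 and MRPS33. MRPL45, which anchors the ribosome to the inner membrane, MRPL46 and MRPL48 were each higher with BRD8 (0.24, 0.26 and 0.43) and TIP60 (0.40, 0.54 and 0.93) and lower with p53 (-0.96, -0.88 and -1.14). MRPL42 was lower with p53 as with RUVBL1 and RUVBL2 (-1.45).

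**Figure D5:**
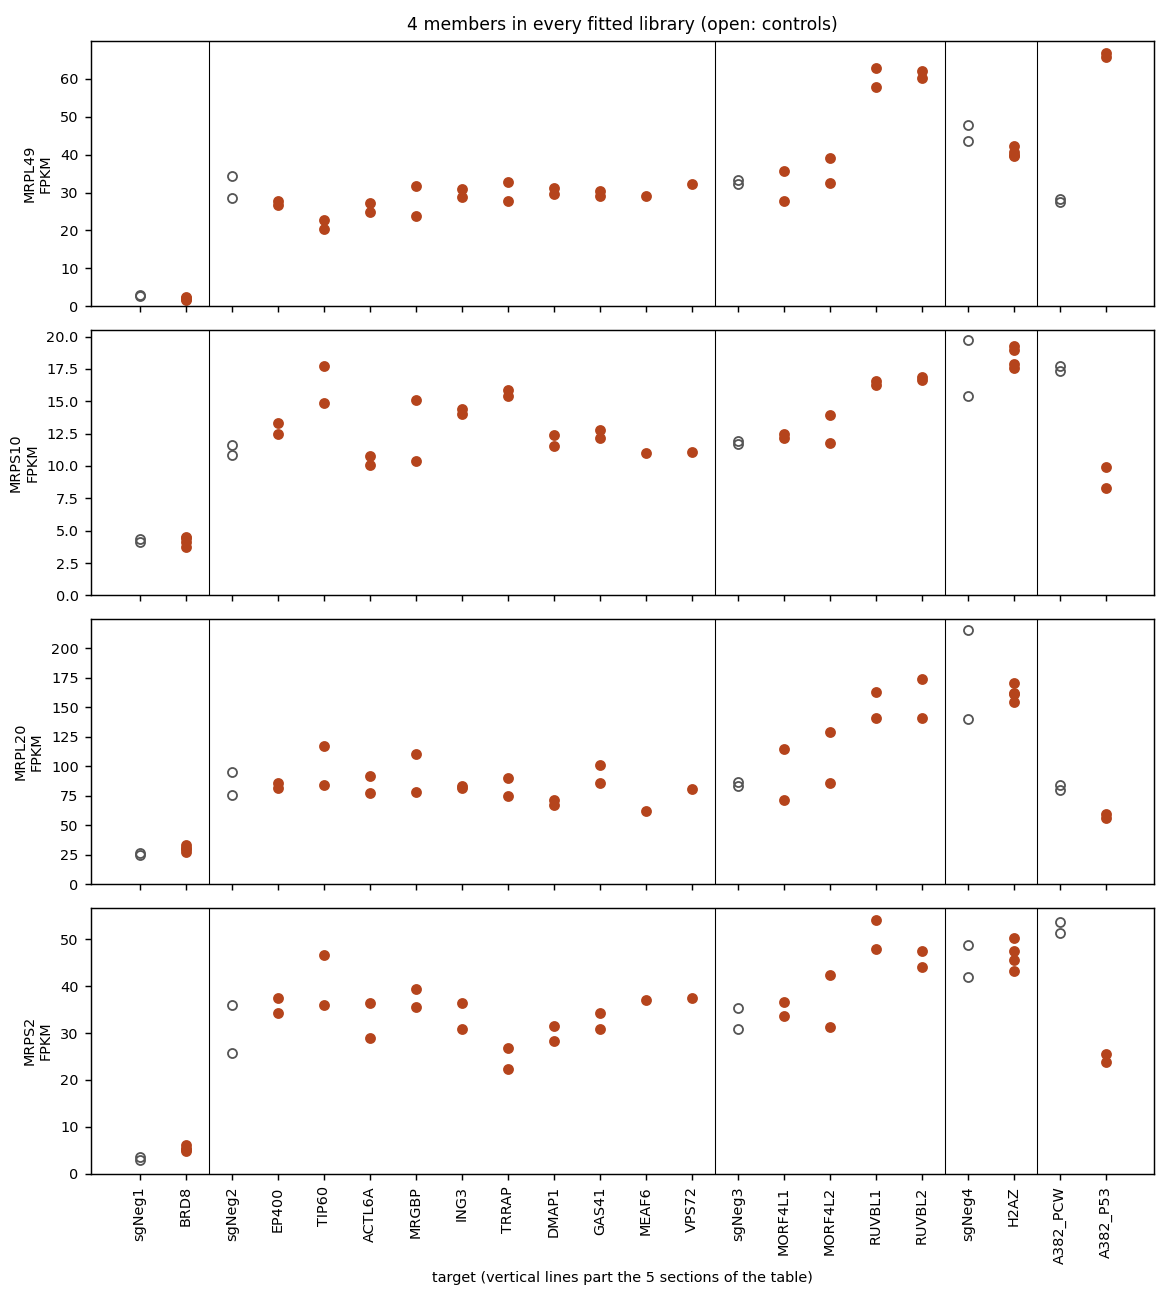
FPKM of MRPL49, MRPS10, MRPL20 and MRPS2 (panels, linear axes from 0) in all 46 fitted libraries by target, with controls as open and knockout or p53 libraries as filled points. Vertical lines part the 5 sections of the table, between which levels were not compared. MRPL49 lies above its controls in RUVBL1, RUVBL2 and A382_P53, where the other 3 genes lie below their controls in A382_P53.

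MRPL28, MRPL38, MRPL43 and MRPL55 were called in no comparison. All 4 are large-subunit proteins, and with p53 they stood at -0.14, 0.04, -0.13 and -0.17, where MRPL28, MRPL43 and MRPL55 changed sign with rescaled libraries. MRPL28 had an adjusted p of 0.0509 there, just above the threshold, with 91.0% of the control level.

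The genes most like the 2 members called most often were taken over the 34 knockout libraries from 8160 genes, by the Pearson correlation of deviations from the section's controls. For MRPL49 these were KRI1 (0.94), GLOD4 (0.93) and PARP6 (0.93), and for MRPS10 CETN2 (0.87), SAR1B (0.84) and YIPF4 (0.83). Libraries share controls within a section, and these values are descriptions without a test.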

How the data were processed

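The authors deposited 1 table of FPKM values for 19102 genes and 48 libraries of stranded poly(A) RNA. Per the submitters' processing notes, TopHat2, Cufflinks, Cuffdiff and hg19 were used, with no versions. Empty columns split the table into sections of 6, 22, 10, 6 and 4 columns. Groups came from the sample labels, and 0 columns belonged to other samples. Counts are not in the table. Fragments per FPKM were read from the steps between low values. Values were analysed as log2(FPKM + 1), with genes of at least 1 FPKM in at least 2 libraries of a section, by limma 3.58.1 in R 4.3.3 (1 level per target, a spread shared by the section's libraries, and an intensity trend in the empirical Bayes step). Tests were two-sided. A call needed an adjusted p (Benjamini-Hochberg, all genes tested in the section) under 0.05. Errors are standard errors. The fit was also run on simulated independent libraries drawn from its own model, without guide differences or length trends. That run does not bear on how the counts move between fits. Members and gene lists were chosen with earlier results of these data known. Named were the 4 largest called rises and falls of a comparison, or all called if under 5, and the members called most often or never. Transcript lengths, overlaps and exons came from GENCODE v29. The level of the induced gene itself is not reported here.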

Additional observations from a re-analysis of the deposited data

How the results depend on the processing

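With p53, the number of called members stayed between 65 and 72 in all 11 alternatives, and the median stayed negative (-0.80 to -0.55). No named member that was called changed direction under any alternative. In the smaller comparisons counts moved by more than 1.5 times. Shares of all genes called under each alternative are not given in this section, so its counts do not set the members apart. Without the filter on low values the counts of called members were 13 for BRD8, 1 for TRRAP, 3 for RUVBL1 and 3 for RUVBL2. With rescaled libraries they were 31 for TIP60, 5 for TRRAP, 10 for TIP60 against EP400 and 11 for RUVBL2. With the length trend removed, an alternative chosen after seeing the data, they were 5 for TRRAP, 11 for TIP60 against EP400, 16 for RUVBL1, 16 for RUVBL2 and 3 for H2AZ. In fits on the libraries of a comparison alone they were 2 for EP400, 10 for TIP60, 1 for TRRAP, 43 for RUVBL1, 35 for RUVBL2 and 1 for RUVBL2 against RUVBL1. With 1 H2AZ guide alone the count was 0. Leaving out 1 library at a time gave 9 to 29 for BRD8, 10 to 12 for TIP60, 0 to 4 for MRGBP, 1 to 4 for TRRAP, 0 to 1 for TIP60 against EP400, 0 to 32 for MORF4L2, 1 to 3 for RUVBL1, 1 for RUVBL2 and 1 to 16 for H2AZ. The cause of these moves was not tested. Correlations of deviations between same-numbered libraries ran from -0.03 to 0.03 in the BRD8 section, from -0.47 to 0.58 in the sgNeg2 section (12 of 36 pairs of groups over 0.1), from -0.08 to 0.72 in the sgNeg3 section (6 of 10), from -0.28 to 0.31 in the H2AZ section (1 of 3) and at 0.04 with p53. In no section were all pairs of groups over 0.1, and the numbers were not taken as pairing the samples. With the replicate block the counts were 14 for RUVBL1, 10 for RUVBL2 and 2 for H2AZ. Depth was 4.44 to 21.9 fragments per kilobase at 1 FPKM. MRPL57 could not be tested in the BRD8 section, and MEAF6 and VPS72 rest on 1 library each.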
